A study of Mus musculus with 167 samples.

Results

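Macrophage markers and lysozymes were followed here as 9 genes: Lyz1, Lyz2, Adgre1, Cd68, Cd14, Cd163, Mrc1, Marco and Msr1. They were picked by name as genes commonly used to recognise macrophages, and each was matched to its row through its Ensembl identifier, giving 9 of the 57010 rows of a gene count table. The table holds bulk RNA sequencing of mouse embryonic fibroblasts (MEFs) that were driven towards dendritic cell fates by lentiviral delivery of 3 transcription factors at a time. The design sets each factor cocktail against untransduced MEFs and against splenic dendritic cells, so the levels of these genes can be set beside both.

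PIB denotes Pu.1, Irf8 and Batf3, PIP denotes Pu.1, Irf4 and Prdm1, and SII denotes Spib, Irf8 and Ikzf2. PIB, PIP and SII were each delivered to the C9a line, MEFs homozygous for both Clec9a-Cre and Rosa26-tdTomato, in which tdTomato (tdT) marks cells that have switched on Clec9a and their progeny. SII was also delivered to the hCD2 line, MEFs heterozygous for hCD2-Cre and Rosa26-YFP on the C57BL/6 background. Live cells were sorted on days 3, 6 and 9 through 3 gates: reporter+CD45+ (tdT+CD45+ or YFP+CD45+), reporter+ and CD45+. The references were untransduced MEFs of each line, sorted as negative for reporter and CD45, and 3 dendritic subsets from wildtype spleen. These were cDC1 (CD11c+, MHC-II+, XCR1+, CD11b-), cDC2 (CD11c+, MHC-II+, CD11b+, XCR1-) and plasmacytoid dendritic cells or pDC (CD11c+, Siglec-H+, B220+, BST2+). The libraries fell into 41 groups, 36 of them transduced. The day 9 reporter+CD45+ gate, on which most comparisons rest, held 5 PIB, 4 PIP and 4 SII libraries of the C9a line and 3 SII libraries of the hCD2 line, against 4 MEF libraries of each line, 3 of cDC1, 3 of cDC2 and 5 of pDC. The labels do not say which libraries came from separate cultures or animals, so p-values measure only the spread between these libraries, which may be technical.

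Macrophages clear microbes and dying cells, and the 9 genes encode parts of that equipment. Lysozyme cuts the peptidoglycan of bacterial cell walls. In mice it is made from a pair of neighbouring genes, Lyz2 (lysozyme M) in macrophages and granulocytes and Lyz1 (lysozyme P) chiefly in Paneth cells of the gut. CD14 hands lipopolysaccharide to the TLR4 receptor, MARCO and MSR1 are class A scavenger receptors that bind bacteria and modified lipoproteins, the mannose receptor MRC1 takes up glycoproteins, and CD163 takes up haemoglobin bound to haptoglobin. ADGRE1 is the F4/80 antigen of mouse macrophages, and CD68 is a glycoprotein of lysosomes and endosomes.

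Both lysozyme genes lie on the minus strand of chromosome 10, Lyz2 at chr10:117277331-117282321 and Lyz1 at chr10:117287797-117292868, and Marco lies on the minus strand of chromosome 1 at chr1:120474538-120505024 (GRCm38, GENCODE M21, all protein-coding). The stretch upstream of their starts is shown because Lyz2 and Marco differed between cocktails that all carry an ETS-family factor (Pu.1 or Spib), with Lyz1 as the neighbouring copy of Lyz2. Each sequence is 200 bases of RefSeq, build GRCm38.p6, from -250 to -51 relative to the start in RefSeq, written 5′ to 3′ on the gene's own strand. The RefSeq start equals the GENCODE start for Lyz1 and Marco and lies 49 bases downstream of it for Lyz2. Capitals mark matches to AGGAAGT or GAGGAA, a pair of motifs holding the GGAA core that ETS factors bind, searched on both strands. The motifs share the letters AGGAA and can overlap. The Lyz2 stretch is chr10:117282323-117282522, the Lyz1 stretch chr10:117292919-117293118 and the Marco stretch chr1:120505075-120505274, all on the minus strand.
Lyz2: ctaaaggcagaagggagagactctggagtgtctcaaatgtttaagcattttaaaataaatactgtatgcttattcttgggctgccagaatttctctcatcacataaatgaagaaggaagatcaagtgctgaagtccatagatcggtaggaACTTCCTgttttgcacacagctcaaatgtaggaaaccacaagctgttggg
Lyz1: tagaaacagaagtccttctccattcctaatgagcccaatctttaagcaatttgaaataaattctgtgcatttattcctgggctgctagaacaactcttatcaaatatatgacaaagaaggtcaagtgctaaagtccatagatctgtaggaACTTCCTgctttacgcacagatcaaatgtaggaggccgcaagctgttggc
Marco: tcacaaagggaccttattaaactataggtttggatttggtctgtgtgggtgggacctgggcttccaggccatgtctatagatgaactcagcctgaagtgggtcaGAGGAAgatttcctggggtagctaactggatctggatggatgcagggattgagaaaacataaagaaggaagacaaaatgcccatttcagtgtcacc
The Lyz2 and Lyz1 stretches were identical at 74.3% of 202 aligned positions, and each held 1 AGGAAGT, on the opposite strand (read here as ACTTCCT), at -100 to -94. The Marco stretch held 1 GAGGAA at -146 to -141. Across 32851 promoter stretches of the same length, 5.67% held AGGAAGT and 18.8% held GAGGAA. Of the 9 members, 6 were searched (Lyz1, Lyz2, Cd68, Cd163, Mrc1 and Marco). Adgre1 and Msr1 had no entry, and the stretch of Cd14 was not searched. Cd68 held GAGGAA at -225 to -220. Mrc1 held AGGAAGT at -211 to -205 and GAGGAA at -180 to -175 and -167 to -162. Cd163 held neither. A match describes letters and is not a measured binding site.

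Library totals lay between 1146927 and 21976374 counts, with a median of 10960122. Levels are given as CPM, counts scaled to the library total. A count of 0 allows up to 3 counts, which is 0.137 CPM in the deepest library and 2.62 CPM in the shallowest, and this limit covers counting error only. In 3 libraries the transduced factors went against the label (1 each of PIB day 6 tdT+, PIP day 3 tdT+ and C9a SII day 6 tdT+). None of the 3 entered a test, and levels that involve them are given with and without them. Splenic libraries carried their subset's markers. The 8 plasmacytoid genes summed to 2445–7106 CPM in pDC, against 70.1–100.4 in cDC1 and 132.6–145.3 in cDC2, and the 10 conventional dendritic genes summed to 13913–14608 CPM in cDC1 and 13125–14004 in cDC2. Erythroid and B cell genes lay higher in cDC1, with 2 genes of each list tested. Their median log2 fold changes were -7.26 and -1.76 in cDC2 over cDC1, and -7.14 and -3.81 in day 9 PIB tdT+CD45+ cells over cDC1. The part of other cells in the cDC1 libraries was not tested. In the tested groups 3 libraries held far less Ptprc, the gene of the sorted antigen CD45, than the rest of their group. Ptprc was at 1.52 CPM in C9a SII day 3 tdT+CD45+ replicate 2, against 114.8–334 CPM in the others, at 14.1 CPM in PIP day 3 tdT+CD45+ replicate 3, against 82.6 and 84.4, and at 71.2 CPM in hCD2 SII day 9 YFP+CD45+ replicate 1, against 228 and 271. Calls that change without them are given below. Fibroblast genes (9) summed to 17551–19760 CPM in day 9 PIB tdT+CD45+ libraries, 1370–1574 in PIP, 15154–34521 in C9a SII and 32404–36517 in hCD2 SII YFP+CD45+ libraries, against 23697–24607 in C9a MEFs and 21488–23875 in hCD2 MEFs. Fn1 (fibronectin) was the highest of the 9 except in PIP, where Col1a2 was, and averaged 12563 CPM in PIB, 362 in PIP, 26493 in C9a SII and 31485 in hCD2 SII, against 8829 in C9a MEFs and 8695 in hCD2 MEFs. By the test over all genes, 7 of the 9 were lower than in MEFs for PIB, 9 for PIP, 8 for C9a SII and 2 for hCD2 SII, with median log2 fold changes of -2.17, -4.76, -3.69 and -2.48, and 1 was higher in SII of each line. In bulk RNA, fewer cells of a type and less RNA per cell cannot be told apart.

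On day 9, Cd14 and Cd68 were higher than in MEFs under each cocktail, and other members differed between them. PIB cells also carried Lyz2, Msr1, Mrc1 and Marco, and PIP cells also carried Marco but almost no Lyz2. SII cells also carried Msr1, a variable amount of Lyz2 and, in the C9a line, Adgre1. In the hCD2 line Adgre1 averaged 2.32 CPM under SII, against 0.0769 CPM in MEFs, and did not pass the filter on low counts. The highest mean of Cd163 in the 36 transduced groups was 0.449 CPM. Against untransduced MEFs, the members that passed the filter on low counts were 6 of 9 for PIB, 4 for PIP, 5 for C9a SII and 4 for hCD2 SII. Of these, 6, 3, 5 and 4 were higher at an adjusted p under 0.05 and at least 2-fold (edgeR quasi-likelihood F test, Benjamini-Hochberg over all genes tested), and none was lower. The share of all tested genes called higher was 10.4%, 15.2%, 10.5% and 10.8% in the same order, and the share called lower was 11.4%, 14.5%, 10.9% and 8.41%. A member silent in MEFs passed the filter only through the transduced group, so these counts describe the members and carry no weight as a test. The median log2 fold change of the tested members was 5.47 for PIB, 3.49 for PIP, 6.01 for C9a SII and 4.69 for hCD2 SII, beside medians over all tested genes of 0.0, 0.05, 0.03 and 0.01.

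**Figure D1:**
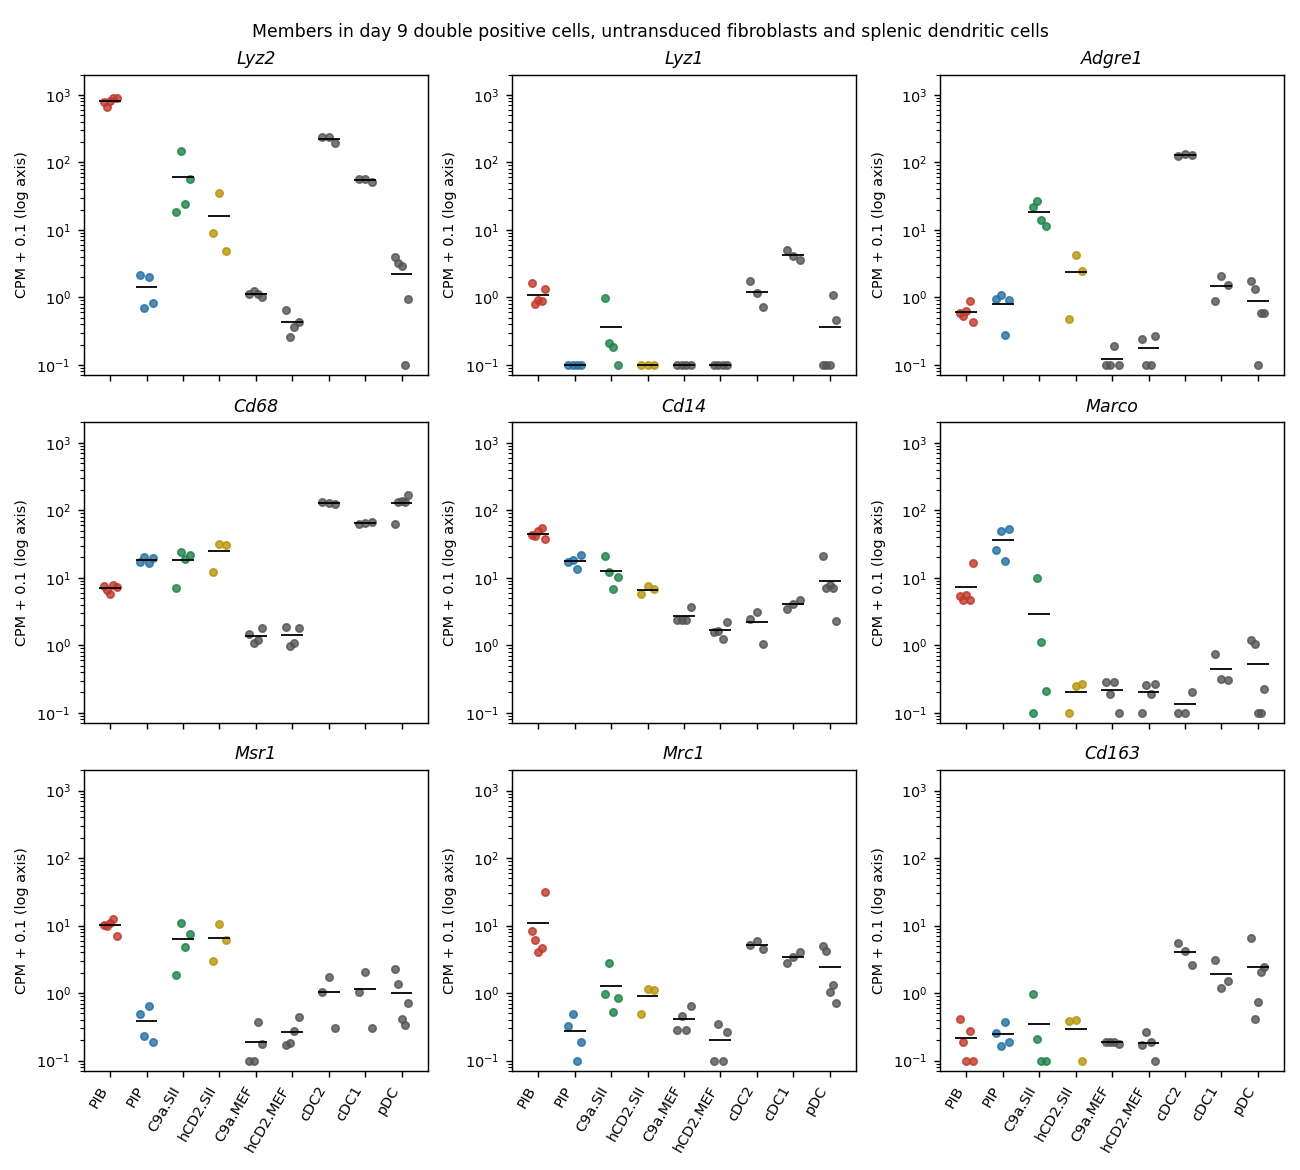
Levels of the 9 genes in each library of day 9 reporter+CD45+ cells, of untransduced MEFs and of splenic subsets (y axis: CPM + 0.1, log scale; one panel per gene; black bars are means). The 5 PIB libraries lie at 650.2–898 CPM for Lyz2, and the 4 PIP libraries lie highest for Marco, at 17.6–53.5 CPM.

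Lyz2 was at 774, 650.2, 811, 898 and 889 CPM in the 5 PIB libraries, at 2.08, 0.590, 1.89 and 0.730 CPM in the 4 PIP libraries, and at 1.00, 1.16, 1.01 and 0.925 CPM in C9a MEFs. The PIB libraries stand far above the rest, and PIP and MEF libraries overlap. Lyz2 was higher in PIB than in C9a MEFs by a log2 fold change of 9.67 ± 0.13 (SE, adjusted p = 1.53e-14, edgeR). PIP did not pass the test (0.59 ± 0.41, adjusted p = 0.218, edgeR). C9a SII libraries held 18.3, 147.8, 23.97 and 56.02 CPM, all above the MEFs of that line (6.01 ± 0.82, adjusted p = 0.000945, edgeR). hCD2 SII libraries held 8.95, 34.8 and 4.76 CPM, against 0.558, 0.162, 0.265 and 0.336 CPM in hCD2 MEFs (5.52 ± 0.82, adjusted p = 0.00264, edgeR). In both lines 1 library, replicate 2, held the most Lyz2. Without it the log2 fold changes were 5.14 in the C9a line and 4.30 in the hCD2 line, and both stayed past the threshold.

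Lyz1 was nearly silent beside Lyz2. PIB libraries had 1.51, 0.687, 0.814, 0.773 and 1.23 CPM of Lyz1 (58 counts in all), and no count fell on Lyz1 in the day 9 reporter+CD45+ libraries of PIP and hCD2 SII or in the MEFs of either line. Lyz1 did not pass the low-count filter in any of the 4 comparisons with MEFs. Of the counts on the 2 lysozyme genes, Lyz1 took 0.124% in PIB cells, against 7.07% in cDC1, 0.481% in cDC2 and 17.5% in pDC, where the share rests on 7 of 40 counts. The Lyz1 and Lyz2 transcripts are 91.95% identical over 1317 aligned bases, yet only 1.97% of the 100-base words of the Lyz2 transcript also occur in Lyz1. Shorter words of 31 bases were shared at 32.8%, so some reads could have been assigned to the wrong copy, and the Lyz1 counts of PIB cells are uncertain for that reason.

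Cd14 was higher under each cocktail than in MEFs, with the highest levels under PIB. The PIB libraries held 42.3, 41.4, 49.9, 53.6 and 37.5 CPM, against 2.28, 2.23, 2.30 and 3.62 CPM in C9a MEFs (log2 fold change 4.15 ± 0.17, adjusted p = 3.38e-10, edgeR). PIP libraries held 17.2, 18.2, 13.4 and 21.8 CPM (2.96 ± 0.17, adjusted p = 9.71e-11, edgeR). C9a SII libraries held 20.9, 11.9, 6.76 and 10.3 CPM (2.15 ± 0.35, adjusted p = 0.0005, edgeR). The hCD2 SII libraries, at 5.68, 7.48 and 6.62 CPM, stood above hCD2 MEFs at 1.47, 1.54, 1.15 and 2.10 CPM (2.05 ± 0.27, adjusted p = 0.00109, edgeR). No library of these groups overlapped its MEFs. Of 11 genes that work with CD14 in sensing lipopolysaccharide, 10 were tested for PIB, PIP and C9a SII and 9 for hCD2 SII. Of these, 5, 7, 4 and 4 were higher and 0, 1, 1 and 0 lower. Among all tested genes, 10.4%, 15.2%, 10.5% and 10.8% were called higher and 11.4%, 14.5%, 10.9% and 8.41% lower. The median log2 fold changes of the list were 1.37, 1.17, 1.2 and 0.78. Itgam and Itgb2, the chains of complement receptor CR3, were higher under each cocktail. Itgam averaged 112.9 ± 13.1 CPM in PIB cells, 305.8 ± 52.6 in PIP cells and 86.2 ± 25.2 in C9a SII cells (SD, n = 5, 4 and 4), against 3.77 ± 0.627 CPM in C9a MEFs (SD, n = 4). Lbp, the serum protein that carries lipopolysaccharide, was lower in PIP (-3.30 ± 0.19) and C9a SII (-3.87 ± 0.24).

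The scavenger receptors divided between the cocktails. Marco was at 25.6, 49.1, 17.6 and 53.5 CPM in PIP libraries and at 5.17, 4.63, 5.40, 4.55 and 16.5 CPM in PIB libraries, against 0.182, 0.0893, 0.184 and 0 CPM in C9a MEFs. Every PIP and every PIB library exceeded every MEF library. The log2 fold changes over MEFs were 8.46 ± 0.76 for PIP (adjusted p = 5.27e-05) and 5.94 ± 0.70 for PIB (adjusted p = 2.87e-05, edgeR). C9a SII libraries held 0, 9.94, 1.03 and 0.107 CPM of Marco and hCD2 SII libraries 0, 0.149 and 0.170 CPM, and Marco did not pass the filter in either line.

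Msr1 was at 10.2, 9.78, 10.96, 12.6 and 7.02 CPM in PIB libraries, against 0, 0, 0.276 and 0.0771 CPM in C9a MEFs (log2 fold change 6.76 ± 0.43, adjusted p = 2.03e-08, edgeR). C9a SII libraries held 1.74, 10.8, 4.79 and 7.39 CPM (6.15 ± 0.64, adjusted p = 1.66e-05, edgeR), and hCD2 SII libraries held 2.89, 10.3 and 6.12 CPM (5.19 ± 0.62, adjusted p = 0.000706, edgeR). PIP libraries lay between 0.0913 and 0.539 CPM, and Msr1 did not pass the filter there. Msr1 thus rose under PIB and under SII in both lines. C9a MEFs gave 4 counts of Msr1 in all, so its size is loosely set: without MEF replicate 3 the log2 fold changes were 8.08 for PIB and 7.40 for C9a SII.

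Mrc1 was at 8.12, 5.92, 3.92, 4.64 and 30.99 CPM in PIB libraries, against 0.182, 0.357, 0.184 and 0.540 CPM in C9a MEFs (log2 fold change 5.01 ± 0.97, adjusted p = 0.00213, edgeR). The PIB libraries lay above the MEFs without overlap, and replicate 5 lay far above the other four. Without that library the log2 fold change was 4.15. Mrc1 reached at most 2.7 CPM in the SII libraries of both lines and 0.394 CPM in PIP libraries, and did not pass the filter against MEFs. Mir511 lies within the span of Mrc1, so counts of both loci could mix.

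Adgre1 was high under SII in the C9a line. The C9a SII libraries held 21.8, 26.9, 13.8 and 11.5 CPM, against 0, 0, 0.0919 and 0 CPM in C9a MEFs. The 4 SII libraries gave 542 counts and the 4 MEF libraries 1 count, a ratio per library total of 793.6 (95% counting interval 141.8 to 31400; edgeR adjusted p = 7.35e-07), and the single count came from MEF replicate 3. hCD2 SII libraries held 0.385, 4.19 and 2.38 CPM (46 counts). All lay above the hCD2 MEFs, which averaged 0.0769 CPM (4 counts), but Adgre1 did not pass the filter there. PIB libraries lay between 0.334 and 0.773 CPM and PIP libraries between 0.18 and 0.984 CPM, near the floor. Whether the SII effect differed between the lines was tested directly. None of the 6 members tested passed the test (called shares of all genes 0.18% higher and 0.388% lower). Adgre1 showed the largest estimate of the 6, a difference of log2 fold changes of 4.53 ± 1.92 (adjusted p = 0.309, edgeR). The others were 0.91 ± 1.13 for Msr1, -0.89 ± 1.12 for Mrc1, 0.44 ± 1.54 for Lyz2, -0.26 ± 0.52 for Cd68 and 0.12 ± 0.49 for Cd14 (adjusted p = 0.774 to 0.963, edgeR). At an unadjusted p under 0.05, edgeR gave 1 of the 6, Adgre1, and DESeq2 called none.

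Cd68 rose under each cocktail, and its fold change over MEFs was smallest under PIB. PIB libraries held 7.48, 6.52, 5.70, 7.82 and 7.25 CPM, against 1.37, 0.982, 1.1 and 1.7 CPM in C9a MEFs (log2 fold change 2.47 ± 0.20, adjusted p = 1.97e-07, edgeR). PIP libraries held 17.1, 19.9, 16.6 and 19.4 CPM (4.03 ± 0.15, adjusted p = 3.61e-13, edgeR). C9a SII libraries held 6.98, 24.3, 19.1 and 21.96 CPM (3.96 ± 0.26, adjusted p = 4.97e-07, edgeR), the lowest value coming from the library with 1146927 counts. hCD2 SII libraries held 12.03, 31.3 and 30.4 CPM, against 0.891–1.74 CPM in hCD2 MEFs. Each transduced library stood above the MEFs of its line. Per kilobase of merged exons, Lyz2 was the highest of the 9 genes in PIB cells at 611 CPM per kb, ahead of Cd14 at 25.9, Cd68 at 5.53, Marco at 3.77, Mrc1 at 1.68 and Msr1 at 1.59 CPM per kb. In PIP cells Marco was at 18.9 and Cd68 at 14.5 CPM per kb.

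**Figure D2:**
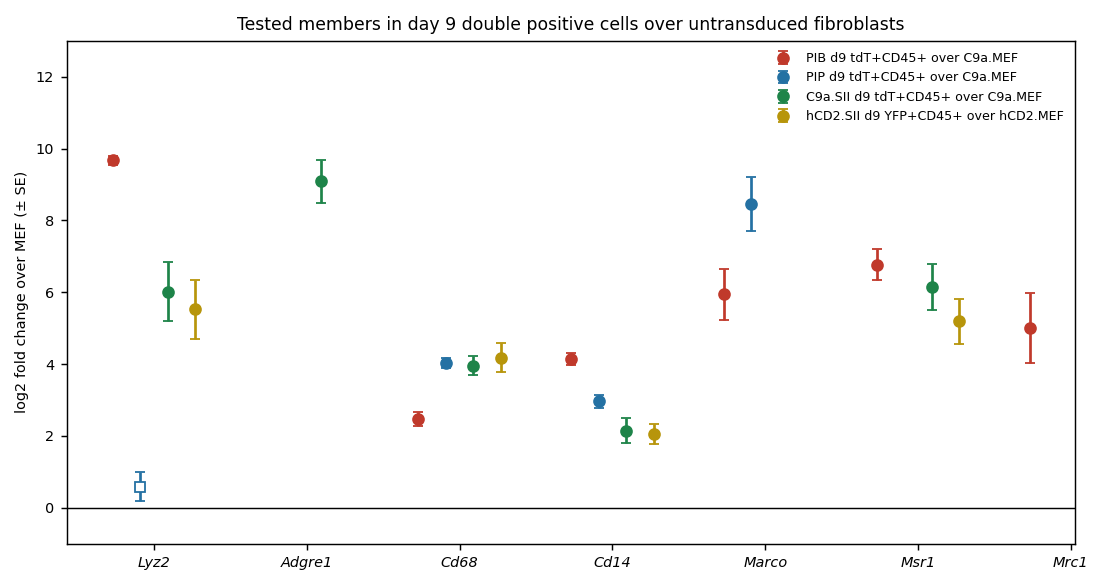
Log2 fold change of each tested member in day 9 reporter+CD45+ cells over untransduced MEFs of the same line. The y axis is the log2 fold change with its approximate standard error. Filled circles passed the test and open squares did not. Lyz2 under PIP, at 0.59 ± 0.41, is the only tested member that did not pass.

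Other genes of the macrophage programme were examined as a list of 25, among them the complement C1q chains, Csf1r, Mertk, Timd4 and Fc receptors. Against MEFs, 11 of 14 tested were higher for PIB, 14 of 16 for PIP, 7 of 11 for C9a SII and 7 of 10 for hCD2 SII, and none was lower. Their median log2 fold changes were 4.43, 5.40, 2.13 and 1.77, and they stayed so with genes at 0 in MEFs set to their bound of 3 counts over the group. Conventional dendritic genes were higher as well, 5 of 6 tested for PIB, 6 of 6 for PIP and 3 of 3 for C9a SII. In hCD2 SII 4 of 5 were higher, and the medians were 7.10, 7.47, 5.95 and 7.24 in the same order. Of all tested genes, 10.4%, 15.2%, 10.5% and 10.8% were called higher. A gene silent in MEFs passed the filter only through the transduced group, so these list counts carry no weight as a test. Against the splenic subsets (cDC1, cDC2 and pDC) the dendritic medians were -6.61 for PIB, -4.79 for PIP, -5.52 for C9a SII and -5.64 for hCD2 SII. Plasmacytoid genes in SII had a median of 0.37 over MEFs in each line, and -9.29 (C9a) and -9.02 (hCD2) over pDC. Batf3, a factor delivered in PIB, is on the conventional dendritic list, so its level in PIB cells was set by the transduction. It stood at 17.2–37.1 CPM in PIB libraries, against 0.179–0.308 CPM in C9a MEFs. The summed level of the 25 other macrophage genes was 739–1002 CPM in PIB, 581–723 in PIP and 477–2338 in C9a SII libraries. C9a MEFs held 233–248 CPM. The hCD2 SII libraries held 456–874 CPM, and C9a MEFs are not the MEFs of their line. Ccr2, a chemokine receptor of monocytes, averaged 149.5 ± 30.4 CPM in PIB cells (n = 5) and 53.9 ± 11.3 in PIP cells (n = 4), against 0.0874 ± 0.00694 CPM in C9a MEFs (n = 4, SD throughout). Fcgr3, an activating Fc receptor, averaged 66.6 ± 11.01 CPM in PIB, 7.13 ± 0.993 in PIP and 58.9 ± 30.4 in C9a SII cells, against 0.126 ± 0.0703 CPM in C9a MEFs. In the hCD2 line it averaged 144.1 ± 96.5 CPM under SII, against 0.138 ± 0.102 CPM in MEFs. Timd4, a phosphatidylserine receptor of resident macrophages, was at 25.7 ± 8.48 CPM in PIB and 17.3 ± 0.849 in PIP cells, and no count fell on it in C9a MEFs. Granulocyte markers, which share Lyz2, summed to at most 10.7 CPM over 9 genes in the day 9 reporter+CD45+ libraries of the 4 transduced groups, with S100a9 at 0 in each group. The 1 granulocyte gene that passed the filter, S100a8, averaged 6.92 CPM in PIB and 4.55 CPM in PIP, against 0.087 CPM in C9a MEFs, and was called higher in both (6.24 and 5.77).

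Relatives of the members were called in both directions, as were genes at large. Of 26 genes of the same families (other scavenger and mannose-type receptors, LAMP proteins and lysozyme-like genes), 5 of 13 tested were higher for PIB, 5 of 14 for PIP, 3 of 14 for C9a SII and 4 of 16 for hCD2 SII. Lower calls numbered 1, 4, 4 and 3, and the median log2 fold changes were 0.79, 0.58, -0.26 and 0.27. The shares of all tested genes were 10.4%, 15.2%, 10.5% and 10.8% higher and 11.4%, 14.5%, 10.9% and 8.41% lower. Whether the list differed from these shares was not tested. Cd36, a class B scavenger receptor, averaged 402 ± 40.7 CPM in PIB, 215.6 ± 32.7 in PIP and 129.9 ± 51.97 in C9a SII cells, against 0.0679 ± 0.0872 CPM in C9a MEFs. Olr1, a receptor of oxidised lipoprotein, was higher in PIB (83.6 ± 15.8 CPM) and C9a SII (65.3 ± 24.99 CPM) and lower in PIP (1.53 ± 0.484 CPM) than in C9a MEFs (23.1 ± 2.46 CPM). The 3 lists hold genes related to the members, were drawn up with results of these data known, and are described by counts alone.

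The cocktails were then compared with each other in the C9a line, in the day 9 tdT+CD45+ gate. PIB exceeded PIP in Lyz2, Mrc1, Msr1 and Cd14, and PIP exceeded PIB in Marco and Cd68. Of the 6 members tested, 4 were higher and 2 lower in PIB than in PIP (10.6% and 11% of all tested genes). The median log2 fold change was 3.11 for the members and -0.01 over all genes. The log2 fold changes of PIB over PIP were 9.12 ± 0.28 for Lyz2 (adjusted p = 1.94e-09), 5.0 ± 0.35 for Msr1 (adjusted p = 5.23e-08) and 1.21 ± 0.13 for Cd14 (adjusted p = 5.82e-06, edgeR). Mrc1 stood 5.52 ± 1.04 higher (adjusted p = 0.00219, edgeR). Its value was 4.66 without PIB replicate 5 and 6.25 without PIP replicate 2. Marco was lower in PIB by -2.51 ± 0.48 (adjusted p = 0.0025) and Cd68 by -1.53 ± 0.12 (adjusted p = 1.12e-07, edgeR). The libraries of the 2 cocktails did not overlap for any of these 6 genes. Among the related lists, Fcgr3 was higher in PIB (3.09 ± 0.14) and Maf, a transcription factor of resident macrophages, lower (-1.41 ± 0.09). Of the 18 other macrophage genes tested, 4 were higher and 4 lower.

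PIB also exceeded C9a SII in Lyz2, Cd14 and Mrc1, while Adgre1 and Cd68 were lower in PIB. Of 7 members tested, 3 were higher and 2 lower (8.57% and 9.92% of all genes), with a median of 1.14 against -0.02 over all genes. Lyz2 differed by 3.71 ± 0.60 (adjusted p = 0.00164), Cd14 by 2.04 ± 0.28 (adjusted p = 0.000226) and Adgre1 by -5.12 ± 0.34 (adjusted p = 4.99e-07, edgeR). Cd68 differed by -1.47 ± 0.20 (adjusted p = 0.000127, edgeR), although the 6.98 CPM of the shallowest SII library lay within the PIB range. Msr1 (0.57 ± 0.28, adjusted p = 0.131) and Marco (1.14 ± 0.94, adjusted p = 0.375) did not pass. SII replicate 2, which held 147.8 CPM of Lyz2, 9.94 of Marco and 2.7 of Mrc1, set several of these values: without it Lyz2 differed by 4.57, Mrc1 by 4.12, and Marco by 3.65 with an adjusted p of 0.00595. The call on Mrc1 (3.10 ± 0.88, adjusted p = 0.0206, edgeR) was lost without SII replicate 3 or 4 (adjusted p = 0.0703 and 0.0685) and without the low-count filter (adjusted p = 0.0813), and the value was 2.22 without PIB replicate 5.

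PIP was then set against C9a SII. Of 6 members tested, Marco was higher in PIP and Lyz2, Adgre1 and Msr1 were lower (10.9% of all genes were called higher and 11.5% lower). The median was -2.15, against 0.01 over all genes. The log2 fold changes were -5.42 ± 0.86 for Lyz2 (adjusted p = 0.00205), -4.48 ± 0.42 for Adgre1 (adjusted p = 1.2e-05) and -4.36 ± 0.54 for Msr1 (adjusted p = 5.85e-05, edgeR). Cd68 differed by 0.06 ± 0.19 (adjusted p = 0.81) and Cd14 by 0.84 ± 0.30 (adjusted p = 0.0439, under 2-fold, edgeR). Marco differed by 3.61 ± 1.01 (adjusted p = 0.0257, edgeR), a call lost without PIP replicate 2 or 4 or SII replicate 3 (adjusted p = 0.0632, 0.0598 and 0.0696) and without the low-count filter (0.0867). Without SII replicate 2, Marco differed by 6.11 and Lyz2 by -4.55. The 3 cocktail comparisons share libraries, so their counts are not independent.

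Over the days of culture, Lyz2 climbed in PIB cells and Marco in PIP cells. In tdT+CD45+ cells of PIB, Lyz2 averaged 74.02 ± 18.7 CPM on day 3, 373 ± 13.2 on day 6 and 805 ± 100.9 on day 9 (SD, n = 4, 4 and 5). In PIP, Marco averaged 3.17 ± 0.344, 18.5 ± 8.19 and 36.4 ± 17.5 CPM (n = 3, 4 and 4), while Lyz2 averaged 10.2 ± 8.78, 5.82 ± 3.71 and 1.32 ± 0.769 CPM. In C9a SII, Adgre1 averaged 0.446 ± 0.288, 6.02 ± 5.16 and 18.5 ± 7.15 CPM (n = 4 each), and Lyz2 averaged 1.34 ± 1.26, 21.8 ± 15.5 and 61.5 ± 59.9 CPM. Lyz2 therefore went up under PIB on each step, with no overlap between days.

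**Figure D3:**
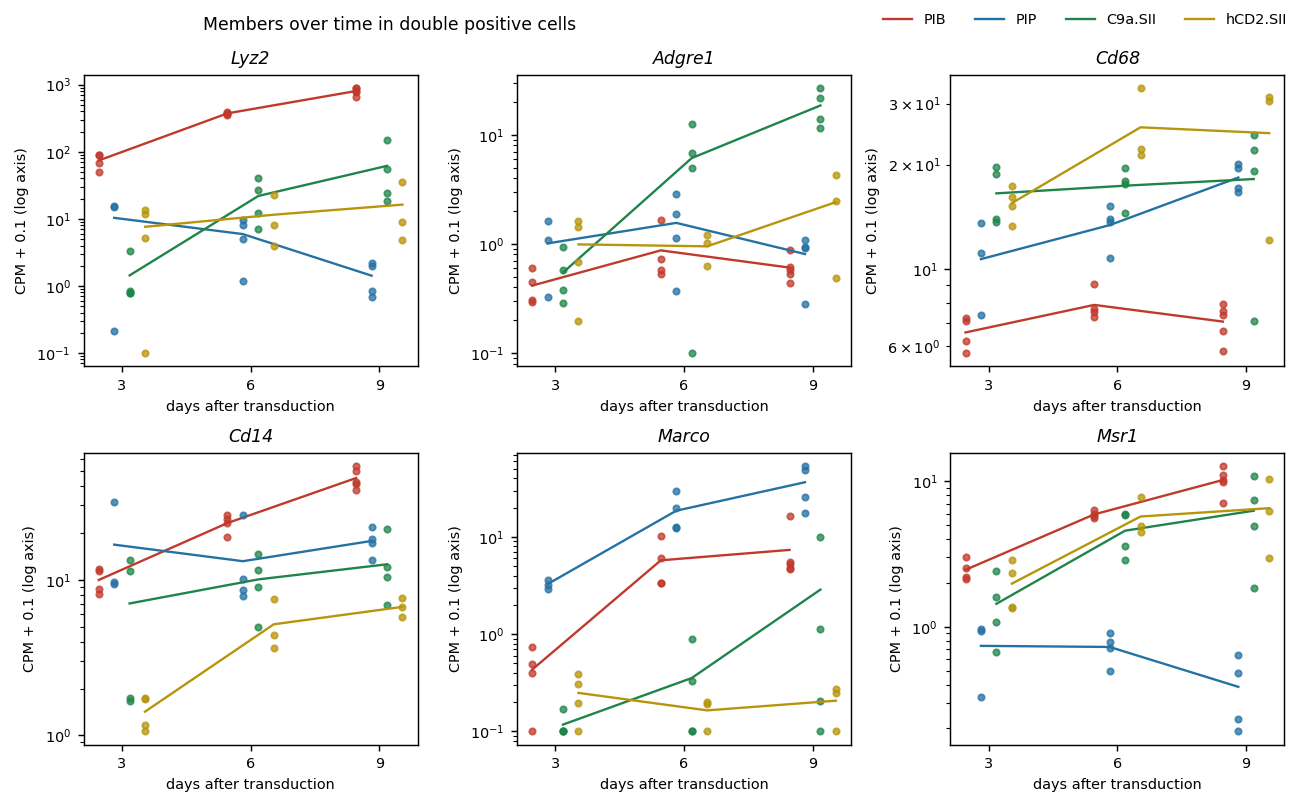
Levels of Lyz2, Adgre1, Cd68, Cd14, Marco and Msr1 in reporter+CD45+ cells on days 3, 6 and 9 for each cocktail and line. The y axes are CPM + 0.1 on a log scale, and points are libraries, shifted sideways by cocktail. Lyz2 under PIB lies at 49.9–89.3 CPM on day 3 and at 650.2–898 CPM on day 9.

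Day 9 was tested against day 3 within each cocktail. For PIB, 5 of 6 tested members were higher on day 9 (3.67% of all genes were called higher) and none was lower (8.47%), with a median log2 change of 2.20 against -0.02 over all genes. The changes were 3.24 ± 0.14 for Lyz2 (adjusted p = 4.69e-08), 4.03 ± 0.58 for Marco (adjusted p = 0.000419), 1.97 ± 0.12 for Cd14 (adjusted p = 4.11e-07) and 1.90 ± 0.21 for Msr1 (adjusted p = 5.02e-05, edgeR). Cd14 held 42.3, 41.4, 49.9, 53.6 and 37.5 CPM on day 9, against 11.6, 11.3, 7.94 and 8.63 CPM on day 3. Cd68 did not pass the test (-0.10 ± 0.16, adjusted p = 0.747, edgeR). The call on Mrc1 (2.43 ± 0.72, adjusted p = 0.0293, edgeR) was lost when any 1 of the day 3 libraries was left out (adjusted p = 0.0609 to 0.0828) and without the low-count filter (0.0736), and its change was 1.58 without day 9 replicate 5.

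For PIP, 1 of 5 tested members, Marco, was higher on day 9 (3.25% of all genes, with 2.95% lower), by 3.60 ± 0.42 (adjusted p = 0.00185, edgeR), and the median was 0.25 against 0.0 over all genes. Lyz2 was at 2.08, 0.590, 1.89 and 0.730 CPM on day 9, against 14.99, 15.6 and 0.114 CPM on day 3. Replicate 3 of day 3 stood apart from the other two: it was the lowest for Lyz2 and, at 31.3 CPM against 9.31 and 9.54, the highest for Cd14. It is the library with 14.1 CPM of Ptprc. Lyz2 did not pass with that library (-2.90 ± 1.05, adjusted p = 0.11) and was called lower without it (-3.48, adjusted p = 0.00041, edgeR). Cd68 was higher on day 9 by less than 2-fold (0.88 ± 0.21, adjusted p = 0.0272, edgeR). Cd14 (0.25 ± 0.40) and Adgre1 (-0.29 ± 0.64) did not pass (adjusted p = 0.729 and 0.807, edgeR), and without that library Cd14 was higher by 0.96, still under 2-fold (adjusted p = 0.000777, edgeR).

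For C9a SII, 1 of 5 tested members, Adgre1, was higher on day 9, by 5.23 ± 0.48 (adjusted p = 0.00694, edgeR), where 0.0965% of all genes were called higher and 0.00643% lower. The median was 2.21 against -0.03 over all genes. Adgre1 held 21.8, 26.9, 13.8 and 11.5 CPM on day 9, against 0.838, 0.190, 0.480 and 0.278 CPM on day 3, so the days did not overlap. Its adjusted p was 0.0538 without day 3 replicate 3 and 0.0545 without day 9 replicate 2. Lyz2 also did not overlap between the days, but its change of 5.72 ± 0.84 missed the threshold (adjusted p = 0.0785, edgeR). It passed without day 3 replicate 2 or day 9 replicate 1 (adjusted p = 0.0277 and 0.014). Day 3 replicate 2 is the library with 1.52 CPM of Ptprc, and without it the change was 6.41 for Lyz2 and 5.03 for Adgre1 (adjusted p = 0.00555, edgeR). Msr1 (2.21 ± 0.52), Cd14 (0.94 ± 0.72) and Cd68 (0.24 ± 0.24) did not pass (adjusted p = 0.148, 0.707 and 0.782, edgeR). For hCD2 SII, 1 of 5 tested members, Cd14, was higher on day 9 (4.48% of all genes, with 2.07% lower), by 2.28 ± 0.29 (adjusted p = 0.00325, edgeR), with a median of 1.29 against 0.05 over all genes. Cd14 held 5.68, 7.48 and 6.62 CPM on day 9, against 1.61, 1.64, 0.962 and 1.07 CPM on day 3. Msr1 changed by 1.73 ± 0.48 (adjusted p = 0.0508, edgeR), and by 2.07 without day 9 replicate 1, the library with 71.2 CPM of Ptprc (adjusted p = 0.0033). Adgre1 (1.29 ± 0.87), Lyz2 (1.07 ± 1.15) and Cd68 (0.64 ± 0.31) did not pass (adjusted p = 0.377, 0.596 and 0.218, edgeR).

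The differences between these time courses were tested as interactions. The day 9 over day 3 change was larger in PIB than in PIP for 4 of 7 tested members (4.49% of all genes, with 6.07% lower): Lyz2 by 6.22 ± 0.88 (adjusted p = 0.000744), Mrc1 by 3.67 ± 1.18 (adjusted p = 0.0435), Msr1 by 3.07 ± 0.60 (adjusted p = 0.0034) and Cd14 by 1.73 ± 0.40 (adjusted p = 0.0104, edgeR). Marco differed by 0.42 ± 0.82 (adjusted p = 0.751), so its change was not shown to differ between PIB and PIP. Neither was that of Adgre1 (0.72 ± 0.80, adjusted p = 0.552), and Cd68 differed by less than 2-fold (-0.94 ± 0.27, adjusted p = 0.0243, edgeR). The change in Adgre1 was smaller in PIB than in C9a SII by -4.78 ± 0.65 (adjusted p = 0.000546, 1.25% of all genes called lower and 1.6% higher). Lyz2 differed by -2.41 ± 0.75 between PIB and C9a SII (adjusted p = 0.0866) and was called without SII day 3 replicate 2 (-3.07, adjusted p = 0.0235, edgeR). The other 5 members tested there, Marco (-2.19 ± 1.95), Cd14 (1.18 ± 0.70), Mrc1 (1.05 ± 1.08), Cd68 (-0.26 ± 0.27) and Msr1 (-0.25 ± 0.50), did not pass (adjusted p = 0.358 to 0.827, edgeR). The change in Adgre1 was also smaller in PIP than in C9a SII, by -5.52 ± 0.83 (adjusted p = 0.00334, 0.867% of all genes called lower and 0.456% higher), as was that of Lyz2, by -8.65 ± 1.5 (adjusted p = 0.014, edgeR). Msr1 (-3.32 ± 0.89), Marco (-2.71 ± 2.15), Cd14 (-0.64 ± 0.89) and Cd68 (0.63 ± 0.35) did not pass between PIP and C9a SII (adjusted p = 0.0837 to 0.817, edgeR). Without PIP day 3 replicate 3, the PIB difference from PIP was 1.12 for Cd14 and 6.84 for Lyz2, and the PIP difference from C9a SII was -9.29 for Lyz2. The Lyz2 difference between PIP and C9a SII was -9.33 without SII day 3 replicate 2 and -7.78 without SII day 9 replicate 2. The Mrc1 difference was 2.87 without PIB day 9 replicate 5 and 4.40 without PIP day 9 replicate 2, and its call was lost without any 1 of 10 libraries (adjusted p = 0.0547 to 0.103) and without the low-count filter (0.0865).

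The double-positive gate was then set against the reporter+ gate on day 9. In PIB cells, Lyz2 held 774, 650.2, 811, 898 and 889 CPM in tdT+CD45+ libraries, against 287, 103.1, 246, 264 and 424 CPM in tdT+ libraries, and the gates did not overlap. Of 6 members tested, 4 were higher in tdT+CD45+ cells (0.94% of all genes, with 0.762% lower), with a median of 1.53 against -0.01 over all genes. The log2 fold changes were 1.64 ± 0.28 for Lyz2 (adjusted p = 0.00791), 3.68 ± 0.71 for Marco (adjusted p = 0.0137), 1.43 ± 0.22 for Msr1 (adjusted p = 0.00308) and 3.39 ± 0.78 for Mrc1 (adjusted p = 0.0343, edgeR). Cd14 (0.50 ± 0.18, adjusted p = 0.149) and Cd68 (0.18 ± 0.13, adjusted p = 0.571) did not pass. The Mrc1 call was lost without any of 6 single libraries (adjusted p = 0.0507 to 0.0994), and its value was 2.52 without tdT+CD45+ replicate 5; Marco was at 4.82 without tdT+ replicate 3. In a single fit over all groups Lyz2 (adjusted p = 0.534) and Msr1 (0.351) did not pass, and without the low-count filter Marco (0.0776) and Mrc1 (0.156) did not.

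In PIP, none of the 3 members tested passed the test between the gates by edgeR (0.0122% of all genes were called higher and 0.0% lower). Marco held 25.6, 49.1, 17.6 and 53.5 CPM in tdT+CD45+ libraries, against 1.81, 6.17, 16.5 and 7.27 CPM in tdT+ libraries, which do not overlap (log2 fold change 2.20 ± 0.59, adjusted p = 0.256, edgeR). DESeq2 called it (adjusted p = 0.0482). At an unadjusted p under 0.05, edgeR gave 1 of the 3 members, Marco. Cd14 stood at 0.54 ± 0.35 and Cd68 at 0.10 ± 0.20 (adjusted p = 0.602 and 0.885, edgeR). In C9a SII, Adgre1 alone of 5 tested members was called (0.115% of all genes were called higher and 0.0321% lower), at 21.8, 26.9, 13.8 and 11.5 CPM in tdT+CD45+ libraries, against 1.02, 1.60, 3.86 and 1.78 CPM in tdT+ libraries (3.24 ± 0.43, adjusted p = 0.0184, edgeR). The call was lost without tdT+ replicate 2 or 4 (adjusted p = 0.134 and 0.0968) and without tdT+CD45+ replicate 2 or 3 (0.063 and 0.0572). Cd14 ran the other way, at 20.9, 11.9, 6.76 and 10.3 CPM in tdT+CD45+ libraries, against 28.4, 30.8, 29.9 and 31.5 CPM in tdT+ libraries. It missed the threshold (-1.38 ± 0.30, adjusted p = 0.143) with the shallowest library, tdT+CD45+ replicate 1, and was called without it (-1.67, adjusted p = 0.00386, edgeR). Msr1 (1.68 ± 0.41), Lyz2 (0.40 ± 0.62) and Cd68 (0.17 ± 0.22) did not pass (adjusted p = 0.18, 0.918 and 0.892, edgeR).

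In hCD2 SII, 3 of 4 tested members were higher in YFP+CD45+ than in YFP+ cells (8.08% of all genes, with 4.13% lower), with a median of 2.86 against 0.02 over all genes. Msr1 held 2.89, 10.3 and 6.12 CPM in YFP+CD45+ libraries, against 0.0764, 0.536, 0.690 and 0.675 CPM in YFP+ libraries (3.71 ± 0.60, adjusted p = 0.00479, edgeR). Cd68 held 12.03, 31.3 and 30.4 CPM, against 3.44, 3.66, 3.97 and 4.502 CPM (2.66 ± 0.33, adjusted p = 0.002, edgeR). Lyz2 held 8.95, 34.8 and 4.76 CPM, against 1.60, 3.13, 1.55 and 1.46 CPM (3.06 ± 0.72, adjusted p = 0.0223, edgeR). Its call was lost without YFP+ replicate 1, 3 or 4 (adjusted p = 0.0629 to 0.0658) and without the low-count filter (0.104), and its value was 1.84 without YFP+CD45+ replicate 2. Cd14 did not pass (-0.37 ± 0.17, adjusted p = 0.126, edgeR). Over all 36 transduced groups, Marco was highest in the PIP day 9 CD45+ gate, at 77.8 ± 14.3 CPM (n = 4), above the PIP tdT+CD45+ gate at 36.4 ± 17.5 CPM, and the ranges of the 2 gates did not overlap. Cd14 was highest in PIB day 9 tdT+CD45+ cells at 44.9 ± 6.63 CPM, close to the PIB CD45+ gate at 43.2 ± 12.1 CPM, and those libraries overlapped.

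**Figure D4:**
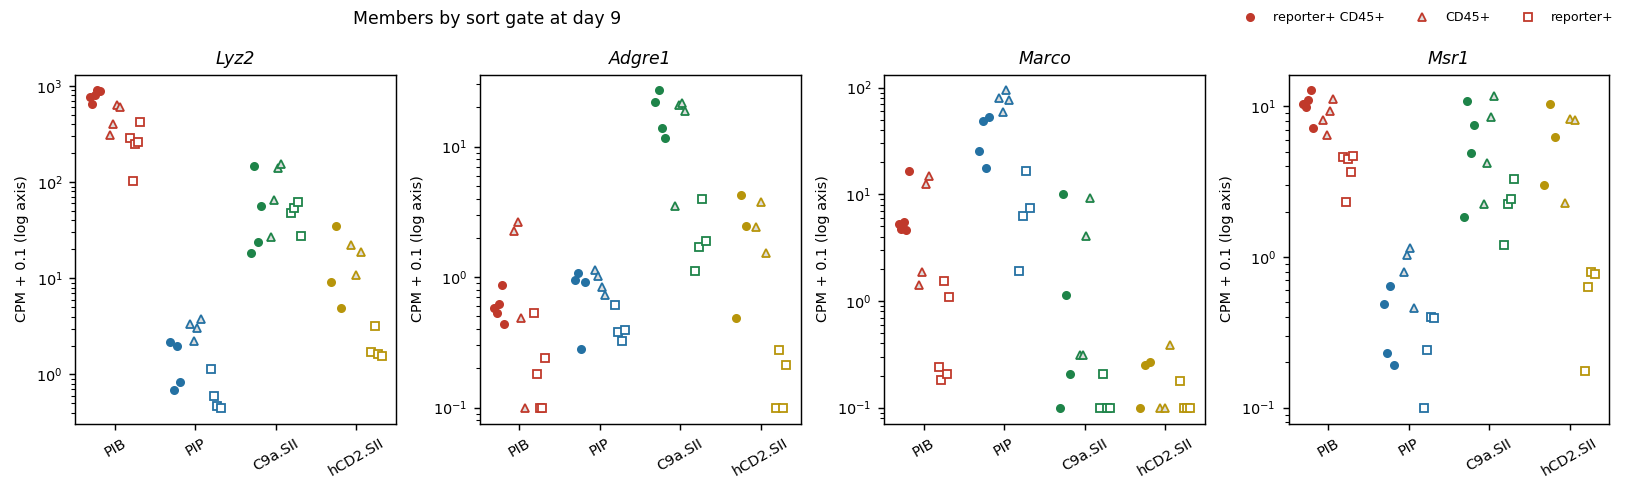
Levels of Lyz2, Adgre1, Marco and Msr1 on day 9 by sorting gate for each cocktail and line. Gates run from left as reporter+CD45+, CD45+ and reporter+. The y axes are CPM + 0.1 on a log scale, and points are libraries. The 4 C9a SII tdT+CD45+ libraries hold 11.5–26.9 CPM of Adgre1 and the tdT+ libraries 1.02–3.86 CPM.

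Reprogrammed cells were then set against the splenic subset that each cocktail is paired with in the study. They had more Cd14 in PIB and PIP and less Cd68 under each cocktail. PIB cells had more Lyz2 than cDC1 (4.18 ± 0.12, adjusted p = 4.17e-13), with 650.2–898 CPM in PIB and 56.3, 56.7 and 51.02 CPM in cDC1. They also had more Cd14 (3.81 ± 0.18, adjusted p = 1.04e-10), Msr1 (3.60 ± 0.40, adjusted p = 1.49e-06) and Marco (4.47 ± 0.74, adjusted p = 0.000229, edgeR). Cd68 (-2.92 ± 0.12), Lyz1 (-1.73 ± 0.35) and Cd163 (-3.56 ± 0.69) were lower in PIB. Mrc1 did not pass (1.94 ± 0.91, adjusted p = 0.0873, edgeR). Of 8 members tested, 4 were thus higher and 3 lower, while 25.4% of all genes were called higher and 32.2% lower. The median was 2.77 against -0.11 over all genes. Lyz1 was at 0.687–1.51 CPM in PIB, against 4.89, 3.96 and 3.43 CPM in cDC1, the highest group for Lyz1 of all 41. Without cDC1 replicate 1 the log2 fold changes of Marco and Cd163 were 5.42 and -2.82, and without cDC1 replicate 2 that of Msr1 was 4.34. The single fit over all groups lost Lyz1 (adjusted p = 0.0884).

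PIP cells differed from cDC2 in all 7 members tested, 2 higher and 5 lower, while 29.3% of all genes were called higher and 26.7% lower. The median was -4.43 against 0.04 over all genes. Lyz2 was at 0.590–2.08 CPM in PIP, against 239, 236 and 190 CPM in cDC2 (-7.22 ± 0.30, adjusted p = 1.38e-07, edgeR). Adgre1 was at 0.18–0.984 CPM in PIP, against 125.4, 131.8 and 129.5 CPM in cDC2, its highest group of all 41 (-7.26 ± 0.19, adjusted p = 4.20e-14, edgeR). Cd68 (-2.64 ± 0.09), Cd163 (-4.53 ± 0.50) and Mrc1 (-4.43 ± 0.49) were also lower and Cd14 was higher (3.32 ± 0.28, adjusted p = 6.34e-08, edgeR). Marco gave 1863 counts in the 4 PIP libraries and 1 count in the 3 cDC2 libraries, a ratio per library total of 876.5 (95% counting interval 157.1 to 34640; edgeR adjusted p = 0.000286), and the single count came from cDC2 replicate 3. Without PIP replicate 2 the value for Mrc1 was -5.13.

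SII cells had more Lyz2 than pDC. C9a SII libraries held 18.3–147.8 CPM, against 3.81, 3.11, 2.86, 0 and 0.862 CPM in pDC (5.15 ± 0.88, adjusted p = 0.0011, edgeR). Adgre1 was also higher (4.83 ± 0.62, adjusted p = 0.000101) and Cd68 lower (-2.63 ± 0.36, adjusted p = 0.000173, edgeR), 3 of the 4 members tested, while 18.4% of all genes were called higher and 19.7% lower. In the hCD2 line, Lyz2 (3.17 ± 0.88, adjusted p = 0.0192) and Msr1 (2.99 ± 0.71, adjusted p = 0.00917) were higher and Cd68 (-2.32 ± 0.42, adjusted p = 0.00205, edgeR) lower among 4 members tested. Cd14 did not pass in either line (0.56 ± 0.59 in C9a SII and -0.35 ± 0.62 in hCD2 SII, adjusted p = 0.466 and 0.68, edgeR). In the hCD2 comparison the background was 15.2% of all genes called higher and 17.7% lower. Lyz2 in C9a SII differed by 4.23 without SII replicate 2 and by 5.92 without the 2 libraries under 2000000 counts. Both hCD2 SII gains were lost without SII replicate 2 (adjusted p = 0.162 for Lyz2, whose value was 1.99, and 0.0621 for Msr1), and Msr1 differed by 3.58 without pDC replicate 1. Fibroblast genes summed to as much as 1228 CPM in 1 pDC library, and their part in these differences was not tested.

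Among the splenic subsets themselves, cDC2 exceeded cDC1 in Adgre1 (6.56 ± 0.19, adjusted p = 2.75e-18) and Lyz2 (2.00 ± 0.10, adjusted p = 1e-13) and had less Lyz1 (-1.94 ± 0.44, adjusted p = 0.000568, edgeR). These were 3 of 7 members tested, with 10.7% of all genes called higher and 24.1% lower. Cd68 (0.97 ± 0.10, adjusted p = 1.56e-08) and Cd14 (-0.98 ± 0.42, adjusted p = 0.049) were just under 2-fold, and Cd68 was past it when any 1 of 5 of the 6 libraries was left out. Cd163 (1.01 ± 0.44, adjusted p = 0.0517) and Mrc1 (0.58 ± 0.34, adjusted p = 0.145, edgeR) did not pass. Lyz2 thus led in cDC2 and Lyz1 in cDC1. Over pDC, cDC2 had more Adgre1 (7.65 ± 0.48) and Lyz2 (7.02 ± 0.63) and less Cd14 (-1.99 ± 0.71, adjusted p = 0.0462, edgeR), 3 of 6 members tested, with 11.7% of all genes called higher and 23.2% lower. The Cd14 call was lost without any single cDC2 library or without pDC replicate 2, 3 or 4 (adjusted p = 0.065 to 0.16) and without the low-count filter (0.0631), and its value was -1.38 without pDC replicate 1. Mrc1 (1.32 ± 0.67), Cd163 (0.87 ± 0.80) and Cd68 (0.13 ± 0.31) did not pass (adjusted p = 0.134, 0.399 and 0.756, edgeR). In cDC1 over pDC, Lyz2 (4.94 ± 0.57) and Lyz1 (3.54 ± 0.83, adjusted p = 0.0116, edgeR) were higher, 2 of 6 members tested, with 7.88% of all genes called higher and 7.88% lower. Lyz1 lost its call without cDC1 replicate 1 (adjusted p = 0.0669) and stood at 4.47 without pDC replicate 4. Cd14 (-1.06 ± 0.60), Cd68 (-0.94 ± 0.35), Mrc1 (0.70 ± 0.67) and Cd163 (-0.23 ± 0.84) did not pass (adjusted p = 0.0987 to 0.893, edgeR). The single fit over all groups lost Lyz1 between cDC2 and cDC1 (adjusted p = 0.159).

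One library outside these tests carried most of the members at once. In CD45+ cells 3 days after PIB transduction, replicate 3 held 847 CPM of Lyz2, against 76.5, 77.1 and 70.4 CPM in the other 3 libraries. Its Adgre1 was 135.99 CPM, against 0.607, 0 and 6.90 CPM. It also led in Marco (68.7 CPM), Msr1 (42.9), Cd68 (41.7), Cd14 (30.7) and Mrc1 (27.2), while Cd163 stayed at 0.207 CPM. Macrophage genes outside the 9 moved with it: C1qa was at 49.7, C1qb at 65.1, C1qc at 58.9, Csf1r at 61.5, Fcgr1 at 38.9 and Gpnmb at 1140 CPM, and the 25 other macrophage genes summed to 1928 CPM, against a median of 414 over the 4 libraries. The transduced factors were present, with Spi1 (Pu.1) at 289, Irf8 at 227 and Batf3 at 40.5 CPM. Replicate 4 held 6.90 CPM of Adgre1 and 10.51 of Marco, above replicates 1 and 2. The part of other cells in this library was not tested.

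**Figure D5:**
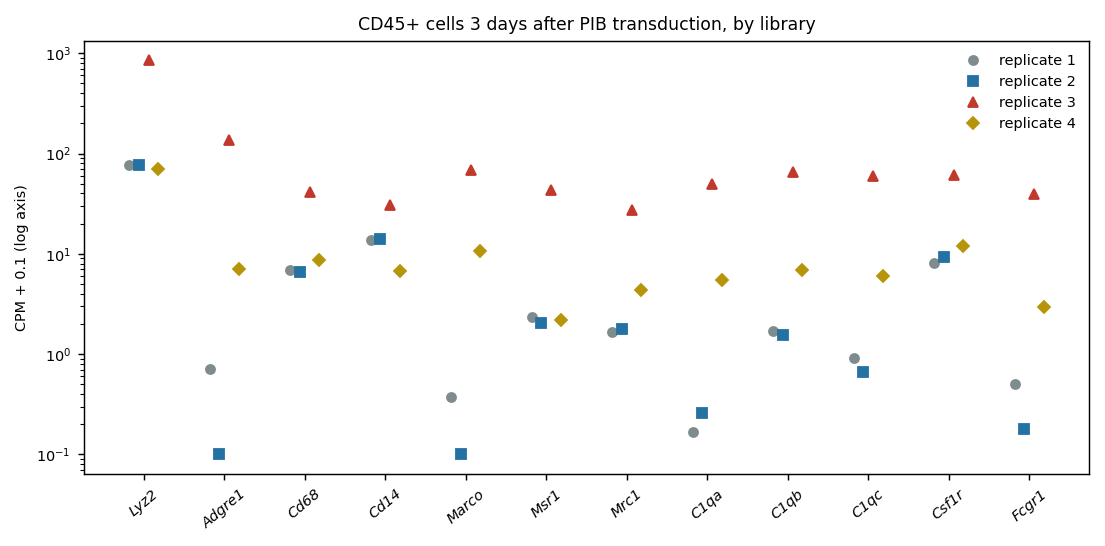
Levels of 7 members and 5 further macrophage genes in the 4 libraries of CD45+ cells 3 days after PIB transduction (y axis: CPM + 0.1, log scale). Replicate 3 lies highest for each gene, from 27.2 CPM for Mrc1 to 847 CPM for Lyz2.

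The 3 libraries whose factors went against their labels also shifted the levels of their groups. In replicate 4 of the libraries labelled PIB day 6 tdT+, the PIP factors Irf4 and Prdm1 stood at 539 and 639 CPM and Irf8 at 1.99 CPM. It had 0.153 CPM of Lyz2, and the group averaged 146.6 CPM with it and 195 ± 6.47 CPM without it (n = 3). In replicate 5 of those labelled PIP day 3 tdT+, the SII factors Spib and Ikzf2 stood at 112.4 and 523 CPM. It had 19.7 CPM of Lyz2, and the group averaged 4.35 CPM with it and 0.504 ± 0.320 CPM without it (n = 4). Replicate 5 of those labelled C9a SII day 6 tdT+, with Irf4 at 658 and Prdm1 at 773 CPM, had 0.203 CPM of Lyz2 and 46.4 CPM of Cd14, and without it the group averaged 23.8 ± 3.52 CPM of Lyz2 (n = 4), against 19.1 CPM with it.

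Across the 41 group means on a log2(CPM + 1) scale, the members did not follow one pattern. Lyz2 ran closest to Mrc1 (Pearson r = 0.792) and Msr1 (r = 0.761), and had an r near 0 with Marco (0.084) and Cd68 (0.045). Over the 36 transduced groups the values were 0.81, 0.803, 0.066 and -0.351. Among 11708 genes whose group mean reached 10 CPM somewhere, the pattern most like that of Lyz2 was that of Ccl6 (r = 0.934), then Ccl9 (0.849), both chemokines, and Clec7a (0.829), the beta-glucan receptor dectin-1. Marco was most like C1qb (0.894), Mmp12 (0.847), macrophage elastase, and Npy (0.838). Adgre1 was most like Clec4a1 (0.801), Siglece (0.733) and Cd300ld (0.725), and Mrc1 like Cd84 (0.913), Ccl6 (0.812) and Lyz2 (0.792). Cd14 was most like Mitf (0.831), Bad (0.814) and Nova1 (0.808), Msr1 like Nts (0.825), Clec5a (0.824) and Itgb8 (0.824), and Cd68 like Cdc42se2 (0.917), Stxbp2 (0.915) and Trim65 (0.908). These correlations describe groups that share libraries, lines and cocktails. The means include the 3 libraries whose factors went against their labels, and PIB day 3 CD45+ replicate 3. That replicate held 68.7 CPM of Marco and 65.1 of C1qb. The rest of its group held 0.27, 0 and 10.51 CPM of Marco and 1.62, 1.44 and 6.76 of C1qb. C1qb and Cd84 had their highest mean in that group. The part of these libraries in the correlations was not tested. When the 5 untransduced groups were left out, at most 1 of the 3 nearest genes was kept for 6 of the 7 members ranked, and Ccl6 and Cd84 stayed nearest to Lyz2 and Mrc1.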

How the data were processed

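Bulk RNA of sorted cells had been sequenced as stranded total RNA after PCR amplification, per the labels' protocols. The authors deposited 1 table of raw gene counts for 57010 Ensembl identifiers. STAR 2.7.9a, Salmon 1.10.1 and the mouse build mm10 are named per the submitters' processing notes, which give no role or order; the strand setting and annotation release of the counting are not given in the sources used here. Names and coordinates came from GENCODE M21 (GRCm38), which named 52029 identifiers, and promoter sequences from RefSeq (GRCm38.p6).

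Levels are CPM, computed from the deposited counts over the library total, and levels per kilobase use merged exon length. Each comparison was fitted on its own groups over all genes passing filterByExpr with edgeR 4.0.16 (R 4.3.3): TMM scaling, robust quasi-likelihood F test, Benjamini-Hochberg adjustment over all genes tested. Called genes changed at least 2-fold with an adjusted p under 0.05. The standard error of a log2 fold change is its size divided by the square root of F, an approximation. Differences between time courses or lines were interaction terms. There were 22 comparisons and 4 interactions. The fit was tested on simulated data with known fold changes.

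Alternatives were DESeq2 1.42.0, its size factors in edgeR, no low-count filter, no fold minimum, a replicate block, a joint fit of all 41 groups, omission of 2 libraries under 2000000 counts, omission of each library in turn (239 fits), TMM-scaled levels, and levels without 3 libraries whose factors contradict their labels. Pairing by replicate number was judged from the correlation of the deviations of same-numbered libraries from their group means. Every pair exceeded 0.1 in 1 comparison, hCD2 SII against hCD2 MEFs, at 0.109 to 0.218 over 3 pairs. This limit was set by choice, the labels do not state pairing, and so few pairs cannot settle it. The block changed no member's call in that comparison. No 2 replicates were copies: over 266 pairs the lowest chi-square per degree of freedom was 2.881.

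The members were named wherever tested. From lists of 25 other macrophage genes, 11 lipopolysaccharide receptor partners and 26 family relatives, the text draws on up to 3 called genes with the largest change among those whose libraries did not overlap and whose higher group averaged at least 10 CPM, plus the largest in the other direction. For likeness, the 3 genes with the highest correlation were taken. Fcgr3 in PIP cells, Itgb2, Mir511 and the complement and Fc receptor genes shown for PIB day 3 CD45+ cells were added after their values were seen. Members and lists were chosen with earlier results of these data known. Python 3.11.15, pandas 2.3.3, numpy 2.4.6, Biopython 1.88 and matplotlib 3.10.9 were used.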

Additional observations from a re-analysis of the deposited data

Results flagged for a closer look

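Levels were screened for a library lying far from the others of its group, by the gap to its neighbour over the group's range, for each member in each group of 4 to 10 libraries where it averaged at least 1 CPM. The screen marked 27, or 17.6% of those screened, and chance marks about 1 in 20. Values below are CPM of the marked library.

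PIB day 3 CD45+ replicate 3 was marked for 6 members: Lyz2 at 847.1, Adgre1 at 135.99, Marco at 68.72, Msr1 at 42.87, Cd68 at 41.7 and Mrc1 at 27.16, each above the other 3 libraries. In replicate 4 of the libraries labelled PIB day 6 tdT+, Lyz2 at 0.1529 and Cd14 at 7.723 lay below the others and Cd68 at 14.76 above them. In replicate 5 of those labelled PIP day 3 tdT+, Lyz2 lay above the others at 19.72. Both of these carried other factors than their label names.

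Cd14 was marked high in 3 PIP day 6 groups, at 26.09 in CD45+ replicate 5, 27.54 in tdT+ replicate 4 and 25.98 in tdT+CD45+ replicate 4. It was also marked at 21.22 in pDC replicate 1, 3.624 in C9a MEF replicate 4, 9.056 in C9a SII day 3 CD45+ replicate 5 and 7.936 in hCD2 SII day 9 YFP+ replicate 3. In day 9 tdT+CD45+ cells, Mrc1 at 30.99 and Marco at 16.5 stood high in PIB replicate 5, and Marco at 9.94 stood high in C9a SII replicate 2. Lyz2 was marked at 3.227 in C9a SII day 3 tdT+CD45+ replicate 2 and at 3.128 in hCD2 SII day 9 YFP+ replicate 2. Adgre1 was marked low at 3.409 in C9a SII day 9 CD45+ replicate 1 and high at 4.01 in hCD2 SII day 6 CD45+ replicate 4. Cd68 was marked at 6.272 in PIP day 3 CD45+ replicate 5, 13.14 in C9a SII day 9 tdT+ replicate 1 and 22.89 in hCD2 SII day 6 YFP+ replicate 4.

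The change in log2 level between day 9 and day 3 differed between cocktails by an interaction test for 7 pairings of a member and 2 cocktails. Between PIB and PIP the difference was 6.22 for Lyz2, 3.67 for Mrc1, 3.07 for Msr1 and 1.73 for Cd14. Between PIB and C9a SII it was -4.78 for Adgre1. Between PIP and C9a SII it was -5.52 for Adgre1 and -8.65 for Lyz2.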

How the results depend on the processing

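No called value changed sign under any alternative tried. The log2 fold changes that changed sign were 17, none called. Without the libraries under 2000000 counts, Cd68 stood at -0.05 in PIP over C9a SII and -0.05 in cDC2 over pDC, and Cd14 at 0.39 in hCD2 SII over pDC. With no filter, that Cd14 was 0.29 and Cd68 between PIB days 0.05. By DESeq2 that Cd14 was 0.06, and in the fit over all groups it was 0.19 and Cd68 between PIB days 0.07. With the replicate block, Cd163 in cDC1 over pDC was 0.36. Single omissions gave, for Cd68, -0.05 to 0.19 in PIP over C9a SII, -0.16 to 0.01 between PIB days, -0.02 to 0.35 between PIP gates, -0.05 to 0.26 in cDC2 over pDC and -0.56 to 0.03 between SII lines. They gave, for Lyz2, -0.17 to 1.5 between hCD2 SII days, -0.44 to 0.68 between C9a SII gates and -0.42 to 1.69 between SII lines, and for Cd14, -0.04 to 0.96 between PIP days, -0.53 to 0.39 in hCD2 SII over pDC, -0.15 to 0.36 between SII lines and -1.12 to 0.03 in the PIP and C9a SII time courses. They gave -0.69 to 0.2 for Adgre1 between PIP days, -0.55 to 0.06 for Cd163 in cDC1 over pDC, -0.01 to 0.89 for Marco in the PIB and PIP time courses, and, for PIB and C9a SII, -0.61 to 0.09 for Msr1 and -3.83 to 0.29 for Marco.

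Counts of members below are those called (adjusted p under 0.05, at least 2-fold), and where a cause is not named it was not tested.

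For members higher in PIP than C9a SII (1), there were 2 with no fold minimum, 0 with no low-count filter and 2 without libraries under 2000000 counts; single omissions gave 0 to 2. In PIB against C9a SII (3 higher) single omissions gave 2 to 5. In hCD2 SII against hCD2 MEFs (4 higher) they gave 4 to 6. For day 9 over day 3, PIP (1 higher, 0 lower) had 2 higher with no fold minimum, and single omissions gave 1 to 2 higher and 0 to 1 lower. C9a SII (1 higher) had 2 with no filter, 4 with DESeq2, 2 with the replicate block, 2 without the shallow libraries, 3 in the fit over all groups and 0 to 2 by single omissions. hCD2 SII (1 higher) had 2 with no filter, 2 with DESeq2 and 1 to 2 by single omissions.

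Between gates, PIB (4 higher) had 2 in the fit over all groups. PIP (0) had 1 with DESeq2. C9a SII (1 higher, 0 lower) had 3 higher and 1 lower with no filter, 3 and 1 with DESeq2, 0 higher with the replicate block, 2 higher in the fit over all groups and 1 lower without the shallow libraries; single omissions gave 0 to 1 in both directions. hCD2 SII (3 higher) had 2 to 5 by single omissions.

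In the spleen comparisons, C9a SII over pDC (2 higher, 1 lower) had 4 higher and 2 lower with no filter, 2 lower with DESeq2, 4 higher without the shallow libraries, 5 higher and 2 lower in the fit over all groups, and 2 to 4 higher and 1 to 2 lower by single omissions. hCD2 SII over pDC (2 higher, 1 lower) had 0 higher with the replicate block, 2 lower with DESeq2, 3 lower in the fit over all groups, and 0 to 2 higher and 1 to 2 lower by single omissions. For cDC2 over cDC1 (2 higher, 1 lower) there were 4 higher with no filter, 2 lower with no fold minimum or DESeq2 size factors and 0 lower in the fit over all groups, with 2 to 4 higher and 1 to 2 lower by single omissions. For cDC2 over pDC (2 higher, 1 lower) there were 0 lower with no filter and 4 higher without the shallow libraries, with 2 to 4 higher and 0 to 1 lower by single omissions. For cDC1 over pDC (2 higher, 0 lower) there was 1 lower without the shallow libraries, with 1 to 2 higher and 0 to 1 lower by single omissions. Among interactions, PIB against PIP (0 lower) had 1 with no fold minimum and 0 to 1 by single omissions, and PIB against C9a SII (1 lower) had 2 with DESeq2 and 1 to 2 by single omissions.

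In the comparisons other than hCD2 SII against hCD2 MEFs, not every pair of same-numbered libraries correlated above 0.1. Between PIB gates the correlations were 0.028 to 0.365 over 5 pairs. The labels do not say whether libraries were paired. The block ended the calls of Mrc1 between PIB gates (3.05, adjusted p = 0.0503), Adgre1 between C9a SII gates (3.26, 0.106) and Msr1 (2.61, 0.0754) and Lyz2 (2.03, 0.063) in hCD2 SII over pDC. It added Lyz2 between C9a SII days (5.44, 0.00126), Mrc1 in PIB over cDC1 (1.15, 0.000879) and Cd163 in cDC2 over cDC1 (1.09, 0.0349; edgeR throughout). Called values that moved over 1.5-fold under it were Mrc1 in PIB over MEFs (4.14), PIP (4.71), C9a SII (2.23) and day 3 (1.60), Marco in PIP over C9a SII (4.2), and, over pDC, Lyz2 in cDC2 (6.32) and cDC1 (4.26) and Lyz1 in cDC1 (7.16). TMM moved 14 of 369 group means by over 1 SD against the library total. Relative to the library total it shifted the median gene by -0.222 (PIB day 9 over day 3) to 0.302 (PIB over cDC1), and fold changes are relative to that.

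Counts of calls over all genes, both directions together, moved beyond 1.5 times most often with no fold minimum. They were then 8970 against 3438 for PIB over MEFs, 10692 against 4650 for PIP, 7465 against 3346 for C9a SII and 6255 against 3164 for hCD2 SII. Between cocktails they were 8283 (3397) for PIB over PIP, 6343 (2968) for PIB over C9a SII and 7173 (3524) for PIP over C9a SII. For day 9 over day 3 the moved counts were 2878 to 5836 (1907) in PIB, 515 to 2384 (982) in PIP, 2 to 433 (16) in C9a SII and 460 to 2003 (1051) in hCD2 SII. Between gates they were 787 (259) in PIB with no fold minimum, 6 to 247 (23) in C9a SII and 659 to 4570 (1974) in hCD2 SII. PIB gates had 0.467 times the calls with all groups fitted together, and PIP gates (2) had 77 times with no filter. Over spleen they were 19006 (10963) in PIB over cDC1, 8933 to 12449 (5924) in C9a SII over pDC, 10696 (5747) in hCD2 SII over pDC, 8947 to 10783 (5636) in cDC2 over cDC1, 11892 (6192) in cDC2 over pDC and 4514 (2689) in cDC1 over pDC. Of interactions, DESeq2 gave 252 calls between the SII lines, 2.5 times those of edgeR, 744 (494) for PIB against C9a SII and 484 (238) for PIP against C9a SII, and no fold minimum gave 3236 (1868) for PIB against PIP.

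Depth limits the silent members: a library with no count of a gene could hold up to 0.137 to 2.62 CPM of it, so in day 9 reporter+CD45+ cells Lyz1 and Cd163 and, under PIB and PIP, Adgre1 were near what these libraries can detect.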
